A study of Mus musculus with 8 samples.

Results

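The endoplasmic reticulum (ER) chaperones and the genes of the unfolded protein response were examined in mouse acute myeloid leukaemia (AML) cell lines on 8 expression arrays. The 38 genes, of 17097 genes on the array, were chosen by name for their role in protein folding. Earlier results of these data were known when they were chosen. Each gene was represented by the probe set with exactly 1 gene symbol and the highest mean over the 8 arrays. Of the 38, 34 read above 500 on every array, 3 (Creld1, Pdia3 and Derl3) read below 500 on every array, and Pdia5 read above 500 in 1 group only. All 38 passed the filter on low values.

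The secretory pathway folds new proteins inside the ER with chaperones and disulfide isomerases. Misfolded proteins are pulled back to the cytosol and destroyed, a route called ER-associated degradation. When folding falls behind, the sensors IRE1 alpha (gene Ern1), ATF6 and PERK (gene Eif2ak3) start the unfolded protein response: Xbp1 and Atf6 raise chaperone and degradation genes, and PERK acts through the transcription factor ATF4. In myeloid cells this machinery serves the making of granule proteins and surface receptors.

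Both groups are leukaemia lines from homozygous Trib1 knock-out mice, and both express the homeobox factor Hoxa9. Trib1 is a pseudokinase that promotes the degradation of C/EBP alpha. Per the labels, cells of the 4 arrays titled Trib1 hi express Trib1 as well, and cells of the 4 titled Trib1 null do not. These are called hi-labelled and null-labelled arrays. All cells grew untreated in IMDM medium, with serum at 10% and the cytokine IL-3 at 5 ng/ml. The labels do not say how many lines, clones or cultures the arrays stand for, so p-values measure only the spread between these arrays, which may be technical. Trib1 status and cell line cannot be told apart in this design.

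Several array-wide facts bear on the values. The Trib1 probe set used read 7.13, 7.13, 122 and 5.92 on the hi-labelled arrays and 304, 223, 212 and 206 on the null-labelled ones, all below 500 and opposite to the labels, so groups are named by their labels throughout. Hoxa9, which both groups should express, read 107 ± 189 and 1024 ± 43.5 (hi-labelled and null-labelled arrays, SD, n = 4 each). The labels do not say whether either probe set reads the deleted or the introduced sequence. The array Trib1 hi 3 stood apart: its background control GC25 read 379 against 15.1 or less on the other 3 of its group, and its mean log2 signal over the genes above 500 was 11.31 against 11.45 to 11.48. Null-labelled arrays read 149 to 335 on GC25. Of the 6 probe sets of dap, a control transcript added to the RNA, all read lower in the hi-labelled arrays (log2 difference -0.50 to -1.26), and 5 did so without overlap. The controls bioD and cre, at group means of 1925 and above, differed by 0.16 or less, and the 4 probe sets of bioC by -0.34 to 0.20.

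Myeloid markers read above 500, and nearly all markers of other lineages read below it. All 10 myeloid markers read above 500 on every null-labelled array and 7 did so on every hi-labelled array. Their summed signal was 61200.3 to 85248 in the hi-labelled arrays and 86889.6 to 104934 in the others, with no overlap. Itgam, an integrin chain of mature myeloid cells, read 1660.0 ± 88.9 against 5122 ± 325 (SD, n = 4 per group). Spi1, Csf3r, Cd33, Lyz2 and Cd68 were also lower, and Ptprc, Csf2rb, Fcgr3 and Tyrobp were not called. All 8 plasma cell markers measured, a cell type rich in ER, were below 500 on every array (summed signal 25.7 to 310.3 and 24.96 to 102). The same held for all 4 B cell, 5 T cell and 4 erythroid markers measured, and for 5 of 6 fibroblast and 4 of 5 endothelial markers. The exceptions were Thy1, which rose from 267 ± 56.9 to 8337 ± 1477, and Pecam1, which fell from 2231 ± 141 to 1610.2 ± 109.6, both also carried by blood cells. Whether myeloid maturity differed between the groups, and any part of it in the results below, was not tested. In such bulk samples, fewer cells of a type and less RNA per cell cannot be told apart.

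Some of these genes carry a known stress element in their promoters. The choice by name took in genes that ATF6 and XBP1 raise, so a high share is no independent result. The ER stress element, bound by ATF6 and XBP1 with the factor NF-Y, is CCAAT and CCACG separated by 9 free bases. It was searched for on both strands in the 250 bases before each RefSeq start (GRCm38.p6), a table that holds 32 of the 38 genes. The element occurred in 9 of the 32 genes (28.1%), against 35 of all 27025 genes (0.13%), or 37 of all 32851 promoters (0.113%). The 9 were Hspa5, Hsp90b1 (in 2 places), Calr, Canx, Dnajc3, Creld2, Pdia6, Syvn1 and Derl3. Element II, which is ATTGG and CCACG separated by 1 free base, occurred in Herpud1 alone (0.0304% of all promoters). Herpud1 also held the ATF4 element (TGATG, 1 free base, AA), at a site that does not overlap element II (3.45% of all promoters). The unfolded protein response element TGACGTGG was in none of the 32, which says only that these letters are not in this window (0.563% of all promoters).

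Stretches of 6 promoters are shown because they cover each kind of outcome below. The ER stress element is in 3 genes that fell (Dnajc3, Creld2, Pdia6) and 2 chaperones that were not called (Hspa5, Canx). Herpud1, which rose, holds element II and the ATF4 element. They are written 5′ to 3′ in the direction of the gene, on the strand given, with the fixed letters of each element in capitals. In Creld2 the ER stress element lies on the opposite strand, so it reads CGTGG first, and in Herpud1 the first capitals are the ATF4 element on the opposite strand and the last are element II.
Hspa5, chr2:34772005-34772063, plus strand: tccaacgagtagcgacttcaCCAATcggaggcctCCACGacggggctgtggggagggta
Canx, chr11:50325780-50325838, minus strand: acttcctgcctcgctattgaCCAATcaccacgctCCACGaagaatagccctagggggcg
Dnajc3, chr14:118937807-118937865, plus strand: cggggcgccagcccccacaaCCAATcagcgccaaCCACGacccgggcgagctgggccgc
Creld2, chr15:88819500-88819558, plus strand: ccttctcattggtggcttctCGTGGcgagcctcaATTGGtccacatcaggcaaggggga
Pdia6, chr12:17266471-17266529, plus strand: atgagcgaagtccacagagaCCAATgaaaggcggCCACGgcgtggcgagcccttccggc
Herpud1, chr8:94386297-94386407, plus strand: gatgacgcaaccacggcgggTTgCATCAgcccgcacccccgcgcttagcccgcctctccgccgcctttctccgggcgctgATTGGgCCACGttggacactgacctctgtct

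**Figure D1:**
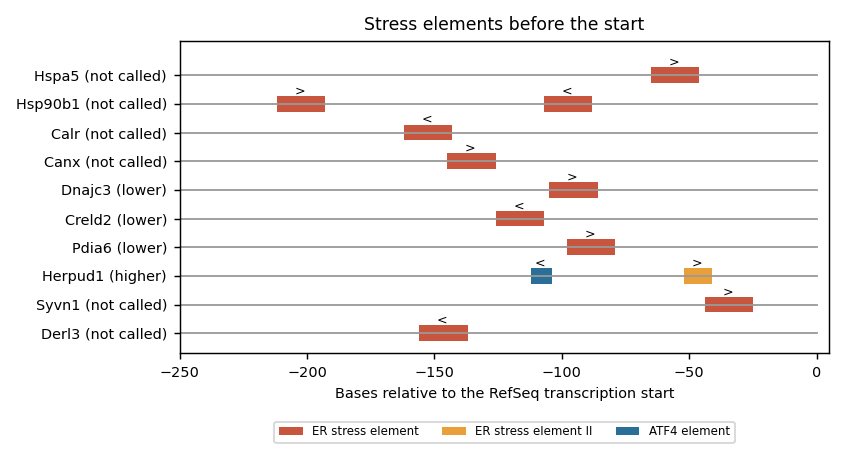
Position of the ER stress element (red), element II (orange) and the ATF4 element (blue) in the 250 bases before the start of the 10 genes that hold any of them; the horizontal axis is in bases from the start, and > and < give the direction of the element relative to the gene. Words in brackets give each gene's call between the groups, and only Herpud1 holds element II.

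The element was not tied to 1 outcome. Among the 9 genes with the ER stress element, Creld2, Pdia6 and Dnajc3 were lower in the hi-labelled arrays and the other 6 were not called. Over the whole table, 16 tested genes hold the element, and these 9 are among them. Of the 16, 0 were higher, 5 lower and 11 not called, with a median log2 difference of -0.15. Of 256 tested genes with the ATF4 element, 39 were higher and 40 lower. Element II was in only 6 tested genes, Herpud1 among them, of which 4 were higher and 1 lower. Sel1l and Ern1, which rose and are in the promoter table, held none of the elements. The background was 11.1% higher and 19.7% lower over all genes tested, and 25.9% and 25.8% among genes above 500 on every array. A match is a description of the letters, and whether any factor bound there was not measured.

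Of the 38 genes, 5 were higher and 11 lower in the hi-labelled arrays (limma, adjusted p under 0.05 over all genes). Over all 12250 genes tested, 11.1% were higher and 19.7% lower, or 30.8% in either direction. Among the 34 genes above 500 on every array, 5 were higher and 9 lower (14.7% and 26.5%), against 25.9% and 25.8% of the 4465 such genes on the array. Over all 38 the shares were 13.2% and 28.9%, both above those of all genes tested. Among the genes above 500 on every array, the share called lower was near its background and the share called higher below it. The median log2 difference of the 38 genes was -0.13, against 0.04 over all genes tested. Without Trib1 hi 3, 8 of the 38 were higher and 12 lower, while all genes called higher went from 1363 to 2080 and all genes called lower from 2409 to 3774. The groups did not overlap for 14 of the 38, against 29.3% of all genes tested. Among the 34 above 500 on every array, the hi-labelled arrays lay wholly above in 4 and wholly below in 9. That compares with 1037 and 1228 of the 4465 such genes on the array, which are larger shares.

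**Figure D2:**
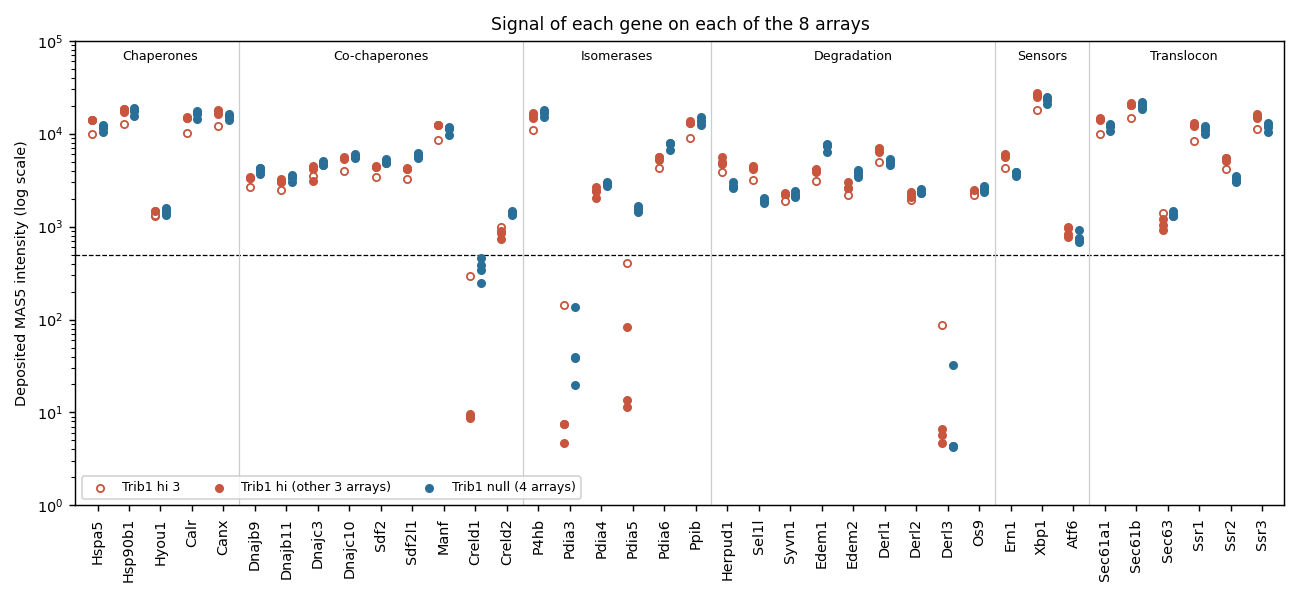
Deposited MAS5 intensity (log axis) of the 38 genes on each of the 8 arrays, ordered by role; red points are hi-labelled arrays, with Trib1 hi 3 as an open circle, blue points are null-labelled arrays, and the dashed line marks 500. For most bright genes the open circle lies below the other 3 red points, and Creld1, Pdia3 and Derl3 lie below 500 on every array.

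The main folding chaperones of the ER were not called with all 8 arrays, though some calls depended on the scaling. Hspa5 (BiP), the HSP70 chaperone that holds the sensors silent, read 14203, 14079, 10012 and 13858 on hi-labelled arrays 1 to 4 and 10389.5, 12382, 11867 and 11491 on null-labelled arrays 1 to 4. Trib1 hi 3 lay below all 4 null-labelled arrays, and the other 3 of its group lay above them. The log2 difference was 0.17 (95% interval -0.10 to 0.43, adjusted p = 0.412), and without Trib1 hi 3 it was 0.29 and past the threshold (adjusted p = 0.00533, range over alternatives 3.43e-06 to 0.629).

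Hsp90b1 (GRP94), the HSP90 of the ER, differed by -0.09 (-0.39 to 0.21), and Hyou1, a nucleotide exchange factor for BiP, by -0.08 (-0.30 to 0.14). The lectin chaperones, which bind sugar-tagged proteins, differed by -0.28 for Calr (-0.56 to 0.01, adjusted p = 0.1495) and 0.05 for Canx (-0.24 to 0.33). Calr passed as lower in 5 of 20 alternatives, among them equal medians above 500 (-0.32, adjusted p = 0.00116) and an equal 90th percentile (0.0414, range 1.52e-08 to 0.335). Canx passed as higher with array weights (0.19, adjusted p = 0.000126) and without Trib1 hi 3 and Trib1 null 1 together (0.0328, range 0.000126 to 0.990). The other probe set of Calr was lower without overlap (9240.1 ± 1594 against 11704 ± 977, adjusted p = 0.0294 in a fit over all probe sets). Canx read 17952, 17358, 12145 and 16427 on hi-labelled arrays and 14021, 16403, 15239 and 15462 on null-labelled ones, with Trib1 hi 3 again lowest of all. The intervals bound the changes these arrays allow, so a missed threshold does not show equal levels.

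Co-chaperones were where most of the decreases lay, with 6 of 9 lower (66.7%) and 0 higher. Of all genes above 500 on every array, as 8 of these 9 were, 25.8% were lower and 25.9% higher. Of the 6, only Creld2 and Sdf2l1 kept their calls in every alternative run, and Creld1 read below 500 throughout. Creld2, a secreted ER stress protein with isomerase activity, read 853, 736, 993 and 891 on hi-labelled arrays and 1391, 1382, 1466 and 1346 on null-labelled ones. Every hi-labelled array lay below every other array, a 1.62-fold decrease (log2 difference -0.69 ± 0.12 SE, adjusted p = 3.38e-05). Trib1 hi 3 read highest in its group here, the reverse of its place for most bright genes.

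Sdf2l1, which helps the J protein ERdj3 keep proteins from clumping, read 4201, 4139.6, 3274 and 4258 against 5419, 6148, 6046 and 5778. That is 1.48-fold lower without overlap (-0.57 ± 0.10, adjusted p = 2.45e-05). Its relative Sdf2 read 4488, 4405, 3377 and 4328 against 4854, 5358, 5119 and 4878, a 1.22-fold decrease with no overlap (adjusted p = 0.0221). The Sdf2 call ended without Trib1 null 2 (0.0738) or Trib1 null 3 (0.0563, range over alternatives 1.02e-07 to 0.167).

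J proteins hand unfolded clients to BiP. Dnajb9 (ERdj4), a strongly stress-induced one that also restrains IRE1, read 3417, 3328, 2636 and 3317 against 3716, 4302, 3922 and 4293. The groups did not overlap, and the decrease was 1.28-fold (-0.36 ± 0.10, adjusted p = 0.00419, 0.0982 without a mean-variance trend, range 1.86e-07 to 0.0982). Dnajc3 (p58IPK), which also inhibits PERK, read 4434, 4187, 3467 and 3105 against 4565, 5117, 4895 and 4584, 1.27-fold lower without overlap (adjusted p = 0.00891). All 5 of its probe sets were lower, and its adjusted p missed the threshold without Trib1 hi 3 (0.0598) or without Trib1 hi 4 (0.0830, range 0.000226 to 0.149). Dnajb11 (ERdj3) differed by -0.19 (-0.39 to 0.01) and Dnajc10 (ERdj5), a J protein with reductase activity, by -0.16 (-0.38 to 0.05).

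Manf, a secreted factor that binds BiP, differed by 0.04 (-0.22 to 0.30). Creld1 read 9.63, 9.10, 291 and 8.66 against 456, 249, 389 and 343, below 500 throughout, where the arrays differ in background. Its call (adjusted p = 0.0139) ended without Trib1 null 1 (0.0629), Trib1 null 3 (0.0752) or Trib1 null 4 (0.0648, range 1.39e-08 to 0.0752), and no fold is given.

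Among the enzymes that make or rearrange disulfide or prolyl bonds, 3 of 6 were lower and 0 higher. Of all genes above 500 on every array, as 4 of these 6 were, 25.8% were lower and 25.9% higher. Pdia5, among the enzymes called lower, was not above 500 on every array, so the sets are not alike. Pdia6, which also ends IRE1 signalling, read 5638, 5605, 4313 and 5217 against 6732, 7947, 7853 and 7822. It was 1.47-fold lower without overlap (-0.55 ± 0.10, adjusted p = 7.21e-05). The call ended when its second probe set, with means of 23.0 and 8.08, was averaged in (log2 difference -0.015, adjusted p = 0.989, range 6.52e-11 to 0.989).

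Pdia4 (ERp72) read 2018, 2649, 2402 and 2413 against 2944, 3001, 2871 and 2725, 1.22-fold lower with no overlap (adjusted p = 0.0192). Leaving out Trib1 hi 1 (0.126) or Trib1 null 2 (0.0601, range 0.00108 to 0.140) ended that call. Pdia5, a less studied member of the family, showed the widest gap of the 38: 13.6, 11.5, 407 and 82.9 against 1453, 1675, 1548 and 1541. With signals below 500 set to 500, it was at least 3.10-fold lower. The main fit, without that floor, gave a log2 difference of -4.86 (adjusted p = 1.29e-07, range over alternatives 6.80e-26 to 0.0215). That size rests on hi-labelled signals below 500, where the arrays differ in background.

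P4hb, the founding protein disulfide isomerase, differed by -0.21 (-0.49 to 0.08) and Ppib, a prolyl isomerase (cyclophilin B), by -0.19 (-0.46 to 0.08). The single probe set of Pdia3 (ERp57), the partner of the lectin chaperones, read 4.68 to 145 over all 8 arrays and gives no level.

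**Figure D3:**
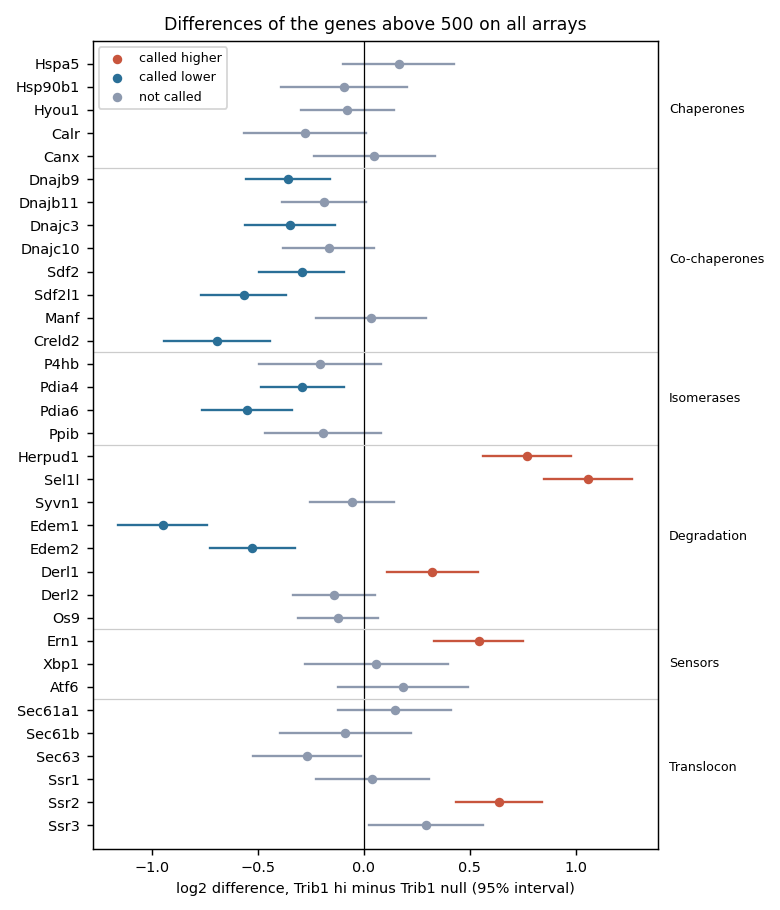
Log2 difference (Trib1 hi minus Trib1 null, dots) with its 95% interval (lines) for the 34 genes above 500 on every array, grouped by role; red genes were called higher, blue lower and grey not called. The largest differences, in Sel1l (1.06) and Edem1 (-0.95), lie in opposite directions within the degradation group.

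The degradation genes parted in both directions, with 3 of 9 higher and 2 lower (33.3% and 22.2%). Of all genes above 500 on every array, as 8 of these 9 were, 25.9% were higher and 25.8% lower. The split is therefore near that background. Sel1l, the adaptor that ties substrates to the ubiquitin ligase HRD1, read 4453, 4405, 3193 and 4183 in the hi-labelled arrays against 1901, 2019, 1811 and 2003. Even its lowest hi-labelled array lay above all others, a 2.08-fold increase (1.06 ± 0.10, adjusted p = 3.81e-10). Its other 4 probe sets were dimmer and not called. The next, at means of 568 and 565, differed by -0.04, and averaging all 5 removed the increase (-0.015, adjusted p = 0.991, range 6.40e-33 to 0.991).

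Herpud1, a membrane protein that gathers the degradation complex and is among the most stress-inducible genes, read 5641, 4929, 3836 and 4723 against 2693, 2768, 2630.5 and 3023. It was 1.71-fold higher without overlap (0.77 ± 0.10, adjusted p = 2.46e-07), and its second probe set rose too (4397 ± 509.6 against 2841 ± 122). Herpud1 is the gene whose promoter stretch, shown above, holds element II and the ATF4 element. Genes with either element were called in both directions, as given above. Derl1, a channel protein, read 7062, 6806, 5015 and 6404 against 4606, 5366, 5129 and 4959, with overlap on Trib1 hi 3 only. Its 1.25-fold increase (adjusted p = 0.0167) ended without Trib1 hi 1 (0.0866), Trib1 hi 2 (0.0623) or Trib1 null 1 (0.0592, range 9.40e-08 to 0.165), while its other 2 probe sets rose without overlap.

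Edem1, a lectin that hands mannose-trimmed glycoproteins to degradation and a target of XBP1, read 4147, 3869, 3104 and 3976 against 6286, 7789, 7457 and 7501. It was 1.93-fold lower with no overlap (-0.95 ± 0.10, adjusted p = 5.59e-09), and its second probe set fell as well, with overlap (4005 ± 826 against 5855 ± 799). Its relative Edem2 read 3019, 2587, 2201 and 2606 against 3442, 4033, 3825 and 3631, 1.44-fold lower without overlap (adjusted p = 6.36e-05). Edem3, of the same family but not among the 38 and named after its values were seen, went the other way (3134 ± 346 against 2379 ± 144, 1.31-fold higher, adjusted p = 0.00175).

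The ligase itself, Syvn1 (HRD1), differed by -0.06 (-0.25 to 0.14). Its dimmer probe set read lower (285 ± 228 against 572 ± 96.4, adjusted p = 0.00789 in the fit over probe sets) with overlap. Derl2 differed by -0.14 (-0.33 to 0.05) and Os9, a lectin that inspects substrates, by -0.12 (-0.31 to 0.07). Derl3, the relative found in highly secretory cells, read at most 87.2 over all arrays.

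Among the sensors, Ern1 was higher and the others were not called. Ern1 (IRE1 alpha), the kinase and RNase that splices Xbp1 messenger RNA, read 5964, 6077, 4225 and 5636 against 3475, 3882, 3719 and 3833. All 4 hi-labelled arrays lay above the others, a 1.46-fold increase (0.54 ± 0.10, adjusted p = 9.52e-05). Its other 4 probe sets had means of 109.9 or less, and with them averaged in the call ended (0.08, adjusted p = 0.968, range 7.92e-10 to 0.968).

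Xbp1, the transcription factor that IRE1 activates, read 27585, 26050.2, 18029 and 24894 against 20612, 24511, 23126 and 23377. The groups overlapped, with Trib1 hi 3 lowest of all 8, and the difference was 0.06 (-0.28 to 0.40, adjusted p = 0.865). The table does not separate spliced from unspliced Xbp1. Atf6, a sensor cleaved in the Golgi, read 832, 763, 989 and 962 against 925, 691, 761 and 744, with overlap (0.18, -0.12 to 0.49, adjusted p = 0.438). Eif2ak3 (PERK), not among the 38 and named after its values were seen, was lower, at 677 ± 170 against 960.0 ± 58.0 (adjusted p = 0.0109). That call ended without Trib1 hi 2 (0.0508, range 1.98e-06 to 0.911).

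The translocon threads new proteins into the ER, and 1 of its 6 genes was called. All 6 read above 500 on every array, where 25.9% of all genes were higher and 25.8% lower. Ssr2, a subunit of the translocon-associated protein (TRAP) complex, read 5508, 5492, 4141 and 5116 against 3039, 3483, 3334 and 3102. It was 1.56-fold higher without overlap (0.64 ± 0.10, adjusted p = 4.08e-06). The TRAP subunits Ssr1 and Ssr3 differed by 0.04 (-0.23 to 0.31) and 0.29 (0.02 to 0.56, adjusted p = 0.0974). Of the channel subunits, Sec61a1 differed by 0.15 (-0.12 to 0.41) and Sec61b by -0.09 (-0.40 to 0.22), and the J protein Sec63 by -0.27 (-0.52 to -0.01, adjusted p = 0.110).

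Leaving out Trib1 hi 3 moved most of the bright genes upwards. Without it Ssr3 (0.41, adjusted p = 0.00266) and Sec61a1 (0.28, adjusted p = 0.00709) passed as higher and Sec63 (-0.37, adjusted p = 0.0123) as lower, in addition to Hspa5 above. Pdia3 also passed as lower (adjusted p = 0.0260), on signals below 500. Canx, Sec61a1, Sec63 and Ssr1 each had probe sets above 500 on every array that pointed in opposite directions, none of them called. Sec61a1 read 14671, 14491, 10001 and 13952 on hi-labelled arrays 1 to 4, and 10664, 12043, 12101 and 12709 on the others. Ssr1 read 13088, 12359.7, 8408 and 12069.5, and 9827, 12165, 11047 and 11128. Both had their lowest value on Trib1 hi 3, whereas Sec63 had its highest hi-labelled value there (927, 1037, 1406 and 1216, and 1309.6, 1358, 1314 and 1478). A dimmer probe set of Sec61a1 was lower (means of 224 and 459, adjusted p = 0.0199 in the fit over probe sets).

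**Figure D4:**
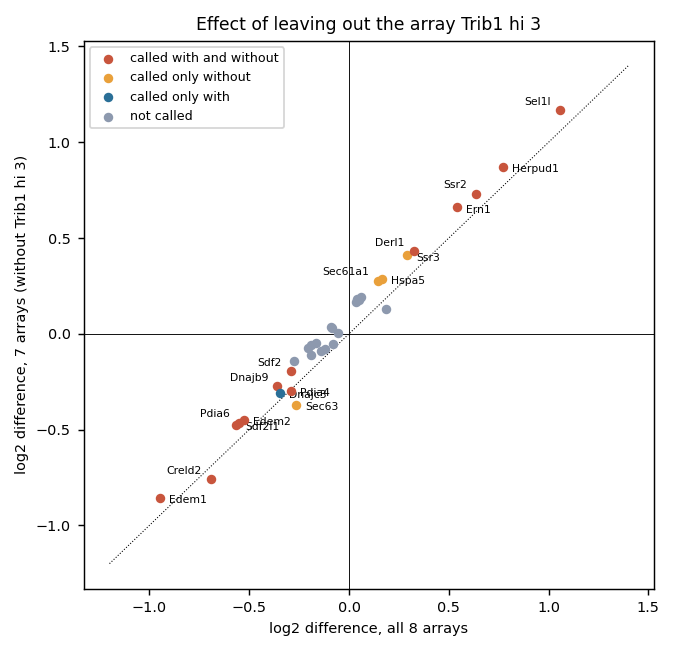
Log2 difference (Trib1 hi minus Trib1 null) of the 34 genes above 500 on every array with all 8 arrays (horizontal) and with 7 arrays, without Trib1 hi 3 (vertical); each dot is a gene, coloured by whether it was called in both fits, and the dotted line marks equal values. Hspa5, Sec61a1, Ssr3 and Sec63 were called only without that array and Dnajc3 only with it.

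The decreases have to be read beside the controls. Except for Creld1 and Pdia5, the 9 genes that fell had log2 differences of -0.29 to -0.95 and group means between 868 and 7588. For the added control dap, which no cell makes, these were -0.50 to -1.26 and 329 to 2963. The controls bioD and cre differed by 0.03 to 0.16 and 0.01 to 0.06, and bioC by -0.34 to 0.20. The part of the dap difference in the decreases was not tested.

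Neighbouring genes of the same pathway are given as counts. The background was 11.1% higher and 19.7% lower over all genes tested, but 25.9% and 25.8% among genes above 500 on every array. The latter kind made up 28 of 38 folding, 25 of 34 degradation, 23 of 28 translocation, 10 of 22 stress-sensing and 11 of 24 integrated stress genes. Of the genes named from these lists, Cnpy3, Bag6, Rhbdd1, Ddrgk1, Get3, Nfe2l1, Nfyb, Trib3, Ddit3 and Atf5 kept their calls in every alternative run. The other genes named by the rule each lost theirs in at least 1. Of 38 other folding genes tested, 14 were lower and 5 higher (median log2 difference -0.30). By log2 difference, which for these genes rests partly on signals below 500, the decreases furthest from 0 were those of Qsox1, a sulfhydryl oxidase (at least 2.32-fold), Txndc11 (122 ± 178 against 336 ± 37.4) and Cnpy3, a co-chaperone for Toll-like receptors (at least 1.92-fold). Tmx2, a membrane thioredoxin-related protein above 500 on every array, was 2.17-fold lower and is named after its values were seen. The largest increases were Tmx3, a membrane disulfide isomerase (1.70-fold), Cnpy2 (1.39-fold) and Mcfd2, a cargo receptor subunit (1.34-fold). Txndc11 lost its call without any of Trib1 hi 1 and 2 and the 4 null-labelled arrays (adjusted p = 0.0573 to 0.0854), and Mcfd2 without Trib1 hi 1 (0.0507). The count of higher folding genes was 2 without Trib1 hi 1 and 8 without Trib1 hi 3. All genes called higher ranged from 1155 to 2080 when any 1 array was left out.

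Degradation genes outside the 38 were also called in both directions, with 11 of 34 higher and 8 lower (32.4% and 23.5%, median 0.01), near the shares among genes above 500. Rhbdd1, a protease of the ER membrane, was 2.10-fold higher (1723 ± 98.6 against 821 ± 59.2), Ddrgk1, part of the UFM1 ligase, 1.83-fold, and Erlin1 1.46-fold. Bag6, which shields membrane proteins in the cytosol, was at least 1.87-fold lower, Erlin2 at least 1.33-fold and Man1a2, a mannosidase, at least 1.28-fold. Without Trib1 hi 1, the Erlin2 (adjusted p = 0.0554) and Man1a2 (0.131) calls ended. Without Trib1 hi 3 the list had 12 higher and 13 lower, and all genes tested had 2080 higher and 3774 lower.

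Translocation and glycan transfer genes were mostly not called, with 1 of 28 higher and 4 lower (median -0.12). Krtcap2, a subunit of oligosaccharyltransferase, was 1.35-fold higher (adjusted p = 0.0102, 0.0506 without Trib1 hi 1). Get3, which delivers tail-anchored proteins, was 1.93-fold lower, Ost4, another transferase subunit, 1.41-fold, and Tram2 read 76.9 ± 133 against 330.3 ± 101. The Tram2 call ended without Trib1 null 1 (adjusted p = 0.0966), Trib1 null 3 (0.1004) or Trib1 null 4 (0.0913). Without Trib1 hi 3, 6 were higher and 5 lower, without Trib1 hi 1 none (0) was higher, and without Trib1 null 3 or 4 the count of lower genes was 2. Over the same fits, all genes called higher numbered 2080 without Trib1 hi 3 and 1167 without Trib1 hi 1. All genes called lower ranged from 1962 to 3774 when any 1 array was left out.

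Of 22 other stress-sensing genes, 4 were higher and 10 lower (median -0.48). Nfe2l1, an ER-bound transcription factor of proteasome genes, was at least 3.39-fold higher, Nfyb, a subunit of NF-Y, 1.46-fold, and Mbtps2, a protease that cuts ATF6, 1.42-fold. Nfya, another NF-Y subunit, was at least 1.38-fold lower, Creb3l2 at least 2.29-fold, and Crebrf read 166 ± 208 against 534 ± 54.4. Averaging probe sets ended the calls of Nfya (adjusted p = 0.550), Creb3l2 (0.189) and Crebrf (0.0831). Those of Nfya (0.111) and Crebrf (0.117) also ended without a mean-variance trend, and that of Crebrf with a floor of 500 (0.144).

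The list of the integrated stress response, the ATF4 arm, moved further than any of the lists above: 16 of 24 were higher and 2 lower, with a median of 1.35. The rise was at least 11.1-fold for Ddit3 (CHOP), at least 9.10-fold for Trib3, and for Atf5 at least 4.61-fold. The kinases Eif2ak2 (184 ± 192 against 467 ± 88.1) and Eif2ak4 (328 ± 163 against 587 ± 123) were lower, and Eif2ak4 (adjusted p = 0.0150) missed the threshold when Trib1 hi 1 (0.0881) or Trib1 null 1 (0.0672) was left out. The Eif2ak2 call ended with no filter (0.0626), a floor of 500 (0.488), no mean-variance trend (0.135) or averaged probe sets (0.0816). This list was known to rise from earlier results on these arrays, so its direction is no independent evidence. Of its 23 genes in the promoter table, 6 held the ATF4 element in the window and 0 held the ER stress element. Of all genes in that table, 3.91% and 0.13% did. The list was drawn up as the ATF4 arm, so its share of ATF4 elements is no independent result either.

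**Figure D5:**
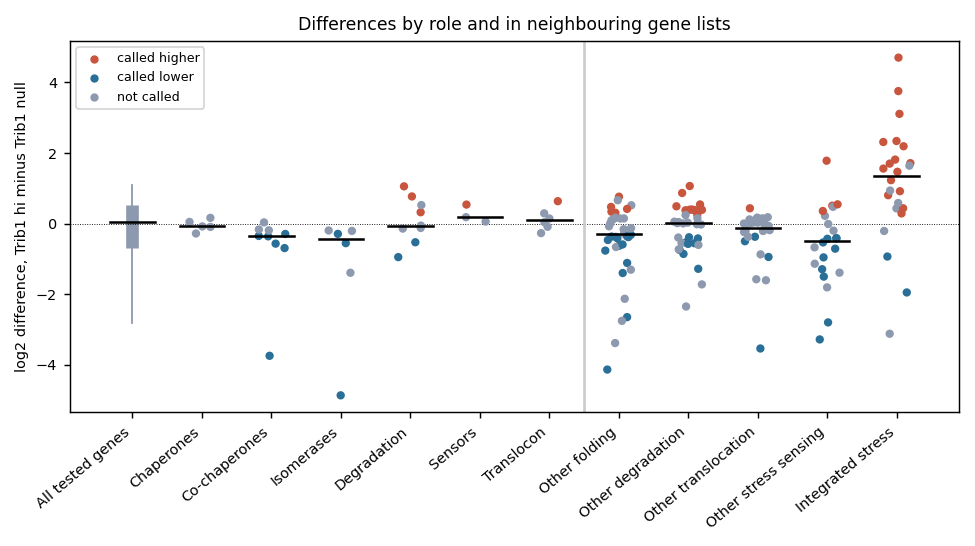
Log2 difference (Trib1 hi minus Trib1 null) by role of the 38 genes (left) and in 5 neighbouring gene lists (right); each dot is a tested gene, red called higher, blue lower and grey not called, and black lines are medians. The first column gives all 12250 genes tested, with the interquartile range as a bar and the 5th to 95th percentiles as a line; the median of the integrated stress list is 1.35 and those of the ER roles lie between -0.42 and 0.18.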

How the data were processed

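The authors deposited 1 table of linear intensity values for 45141 probe sets on 8 Affymetrix arrays. Per the submitters' processing notes these are MAS5 signals. Array labelling started from 100 ng of total RNA, per the labels' protocols. The deposited intensities have a trimmed mean of 500.1 to 500.2 on every array, and no detection calls were used. With 4 arrays in each group, their number limits precision.

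Of the probe sets, 28898 had exactly 1 gene symbol in the annotation of the array. Values were tested as log2(intensity + 2.71), the pseudocount being the 25th percentile of all values. Log2 differences of dim genes depend on it: that of Creld1 was -3.74, and -1.59 with a pseudocount of 100. Genes with a mean over 3.01 (the 40th percentile) were kept. Two-sided tests between groups came from limma 3.58.1 (R 4.3.3) through lmFit and a trended eBayes, with Benjamini-Hochberg adjustment over 12250 genes and a threshold of 0.05. All adjusted p-values are from limma. Folds are ratios of geometric means after signals below 500 were set to 500, so folds of dim genes are understated. They are written "at least" where 1 group had such signals, and left out where both had. Scripts were tested on simulated data. Promoter sequences are RefSeq's (GRCm38.p6).

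The 38 genes and the lists were chosen with earlier results of these data known. All 38 are named, with values on every array for called genes without overlap for Hspa5, Xbp1, Atf6 and Ern1, and for genes with bright probe sets in opposite directions; Creld1 and Derl1, called with overlap, were added after their values were seen. Up to 3 genes per direction are named from each other list. The alternatives were 11 processing choices, leaving out each of the 8 arrays, and 1 added after seeing the data.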

Additional observations from a re-analysis of the deposited data

Results flagged for a closer look

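In 34 genes above 500 on every array, the highest and lowest array of each group of 4 were compared with the gap to the next array, relative to the group's range. Chance alone marks about 1 in 20 groups, here of 68 groups. The gap was wide for 11 values, of which 10 were the lowest value of Trib1 hi 3 and 1 the lowest of Trib1 null 1, the arrays with the highest GC25 readings (379 and 335).

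On Trib1 hi 3, the chaperones Hspa5 read 10012 (next array 13858) and Calr 10153 (14637). Among co-chaperones there, Dnajb9 read 2636 (3317), Dnajc10 3967 (5385), Sdf2 3377 (4328), Sdf2l1 3274 (4139.6) and Manf 8648 (12379). The isomerase Ppib read 9058 (12919), and the translocon subunits Sec61a1 read 10001 (13952) and Sec61b 14849 (20228). On Trib1 null 1, Pdia6 read 6732 (7822). The part of array background in these low values was not tested. Of the calls among these genes, those of Dnajb9, Sdf2, Sdf2l1 and Pdia6 held without Trib1 hi 3, and Hspa5 and Sec61a1, not called with all 8 arrays, passed without it.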

How the results depend on the processing

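Of the 16 called genes among the 38, 7 kept their call and direction in every alternative run (Sdf2l1, Creld2, Pdia5, Edem1, Edem2, Herpud1 and Ssr2). Of the 22 not called, 20 passed in at least 1 alternative, 11 changed sign in at least 1, and 0 did neither. Quantile normalization moved members called higher from 5 to 10, members called lower from 11 to 21, all genes called higher from 1363 to 3341 and all genes called lower from 2409 to 3355. Array weights gave 12 members higher, and 2820 of all genes higher and 4900 lower. Without a mean-variance trend 6 members and 1274 of all genes were lower. Calls of Sdf2 (0.167), Dnajc3 (0.149), Pdia4 (0.140), Derl1 (0.165), Creld1 (0.0576) and Dnajb9 (0.0982) ended there (adjusted p). Averaging the probe sets of a gene left 3 members higher, with 725 of all genes higher and 1317 lower. Leaving out Trib1 hi 3 and Trib1 null 1 together, chosen after seeing the data, gave 11 members higher, and 2665 of all genes higher and 3906 lower. Over all alternatives, the count of members called lower was highest with quantile normalization (21) and lowest without a mean-variance trend (6). Leaving out 1 array gave 4 to 8 members higher and 9 to 12 lower, and 1155 to 2080 of all genes higher and 1962 to 3774 lower. The median of all genes then ranged from -0.33 to 0.16. With the replicate block 5 members were higher and 11 lower, and no call among the members or other named genes changed. The arrays share only a number: deviations of same-numbered arrays correlated at -0.51, 0.51, -0.13 and 0.05. The cause of these changes was not tested.

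Some signs turned, each with an adjusted p above the threshold. Averaging probe sets gave 0.024 for Hyou1, -0.039 for Canx, -0.015 for Sel1l, -0.40 for Xbp1, -0.032 for Atf6, -0.46 for Sec61a1, -0.62 for Ssr1 and 0.19 for Ost4. Quantile normalization gave -0.022 for Manf and -0.026 for Ssr1, and equal medians above 500 gave -0.0014 for Manf. Array weights gave 0.034 for Hsp90b1, 0.026 for Syvn1 and 0.015 for Sec61b. Leaving out 1 array gave -0.012 to 0.18 for Canx, -0.024 to 0.17 for Manf, -0.010 to 0.19 for Xbp1, -0.030 to 0.18 for Ssr1, -0.15 to 0.036 for Hsp90b1, -0.087 to 0.0043 for Syvn1, -0.33 to 1.11 for Derl3 and -0.14 to 0.030 for Sec61b. Creld1, Pdia3 and Derl3 gave no value with a floor of 500.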
